A study of Mus musculus with 67 samples.

Results

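The elements annotated to 7 transcription factor genes of the developing neural tube, Prdm8, Prdm12, Prdm13, Prdm14, Prdm16, Sp8 and Prox1, were examined in chromatin accessibility profiles of mouse neural progenitors (NPs). An element is a region of open chromatin from the consensus set of the study, and it belongs to a gene where the annotation of the study, made with HOMER, gives that gene as its Gene Name, the one with the nearest transcription start site (TSS). By this rule 48 of the 111638 elements in the table of values were members: 2 at Prdm8, 3 at Prdm12, 10 at Prdm13, 6 at Prdm14, 2 at Prdm16, 17 at Sp8 and 8 at Prox1. The annotation lists a further 11 elements of these genes that are not in the table of values and were not analysed here. Elements are named below by the gene and the signed distance in kb of their centre from its TSS, negative values being upstream.

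The samples came from HM1 mouse embryonic stem cells, an established line, differentiated in culture to spinal cord NPs. Cells were fixed with paraformaldehyde, tagged by transposition, stained for intracellular transcription factors and sorted before sequencing (CaTS-ATAC). The 67 samples form 25 conditions, 17 with 3 samples and 8 with 2. Neuromesodermal progenitors (NMP), the bipotent precursors of spinal cord and trunk mesoderm, were taken on day 3 before the Smoothened agonist SAG was given (labelled 0 nM). From day 3 all cultures received 100 nM retinoic acid together with 0, 10, 100 or 500 nM SAG, which activates the Sonic hedgehog (Shh) pathway. On days 4, 5 and 6, p0-1 cells were taken from 0 and 10 nM SAG, p2 cells from 10 and 100 nM, and pMN and p3 cells from 100 and 500 nM. All groups carry the same genotype, no animal was used, and every result concerns 1 cell line in culture. Samples of a type and day were combined over SAG, so that a group holds 3 (NMP) or 4 to 6 (NP) samples. The p0-1 samples share no SAG concentration with pMN or p3, and p2 shares only 100 nM with them. In pairs of p0-1 with pMN or p3, cell type and SAG concentration therefore cannot be told apart. On day 6 the 4 pMN and the 4 p3 samples carry replicate numbers 2 and 3 only, each number at 100 and 500 nM. If samples of 1 number share a differentiation, the day 6 ranges and p-values of these types rest on 2 differentiations. Leaving out replicate 1 removes no pMN or p3 sample of day 6.

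In the ventral neural tube, Shh from the notochord and floor plate divides progenitors into domains that each give rise to a different class of neuron; from ventral to dorsal these include p3, pMN, p2, p1 and p0. The Prdm genes encode zinc finger proteins with a PR domain, a relative of histone methyltransferase SET domains, and several act as repressors in progenitors or early neurons. Prdm12 is known from the p1 domain and from pain-sensing neurons, Prdm13 from inhibitory neuron specification in the dorsal spinal cord, and Prdm8 from axon targeting and postmitotic neurons. Prdm16 is best known for brown fat and for the maintenance of neural stem cells, and Prdm14 for pluripotency and germ cells. Sp8 is a zinc finger factor of the Sp family needed for limb and forebrain growth that is also present in spinal cord progenitors, where it has been linked to the boundary between pMN and p3. Prox1 is a homeodomain factor of lymphatic vessels, liver and neural progenitors that begin to leave the cell cycle.

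Reads in elements ranged from 9298160 to 29985325 per sample, with a median of 20254011. Summed over the elements of each marker gene, Olig2 accessibility was highest in pMN on day 6 (mean 10890 normalized counts), Foxa2 accessibility in p3 (13110), Dbx1 accessibility in p0-1 (6255) and accessibility of T and Cdx2 in NMP (3590 and 5425). No element carries Nkx2-2 as its Gene Name, and elements of Nkx2-9 were as open in pMN (3007) as in p3 (2927) on day 6. Elements of the floor plate gene Shh were also most open in p3 on day 6, at 2544 to 5193 normalized counts per sample, against at most 1842 in any sample of the other NP types. Their part in the p3 results below was not tested. In a sorted population, fewer cells with an open element and less opening in each cell cannot be told apart.

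Of the 48 elements, 32 are intergenic, 10 lie in introns, 3 in exons and 3 in promoters by the annotation, and 18 are more than 50 kb from the TSS. Widths run from 246 to 6938 bp with a median of 1090 bp. All coordinates are mm10 (GRCm38). The elements at the starts of the genes are Prdm8 -0.3 kb (chr5:98179492-98181646), Prdm12 -1.4 kb (chr2:31635187-31642124), Prdm13 0 kb (chr4:21685437-21686585), Prdm14 +0.3 kb (chr1:13124881-13128938, also intron 1) and Prdm16 +0.1 kb (chr4:154634827-154638677), each of which contains the TSS. The first Sp8 start in RefSeq overlaps no element, and Sp8 +2.2 kb (chr12:118846632-118850400), which covers exon 3 and the later starts, stands for its promoter. The promoter of Prox1 lies in an element annotated to the neighbouring LOC102632463 and is therefore no member, so the nearest Prox1 member is -3.5 kb (chr1:190172993-190175654), in an intron of LOC102632463.

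The 300 bp at the centre of 4 elements that carry main differences are shown here, 5′ to 3′ on the plus strand of GRCm38, followed by the RefSeq promoter of Prdm13 (250 bases before to 50 after its start, on the minus strand, GRCm38.p6). The Sp8 elements, of 724, 1511 and 619 bp, separate pMN from p3 or NPs from NMP, and the Prdm13 element of 1851 bp separates p0-1 from the other types. Capitals mark exact matches, on either strand, to the letters TGTTTAC or TGTTTGC (FOXA), GACCACCCA (GLI), AACAAT (SOX), TAATTA (homeodomain), TTAAGTG or TCAAGTG (NKX2-2 class) and CAGCTG (E-box). A match is a string of letters and not a measured binding site.
Sp8 -16.4 kb, chr12:118829828-118830127: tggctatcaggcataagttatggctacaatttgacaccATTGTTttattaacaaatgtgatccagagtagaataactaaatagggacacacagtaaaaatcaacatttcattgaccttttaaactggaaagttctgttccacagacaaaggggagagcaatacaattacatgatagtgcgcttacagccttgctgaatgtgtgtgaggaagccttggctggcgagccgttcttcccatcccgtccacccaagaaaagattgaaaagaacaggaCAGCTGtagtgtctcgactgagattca
Sp8 -5.2 kb, chr12:118840961-118841260: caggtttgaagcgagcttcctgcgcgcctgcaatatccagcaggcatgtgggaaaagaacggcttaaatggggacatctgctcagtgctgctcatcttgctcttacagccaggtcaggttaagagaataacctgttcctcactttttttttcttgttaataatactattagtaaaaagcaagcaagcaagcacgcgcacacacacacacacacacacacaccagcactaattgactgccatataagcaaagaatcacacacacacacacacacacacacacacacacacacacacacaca
Sp8 -111.9 kb, chr12:118734260-118734559: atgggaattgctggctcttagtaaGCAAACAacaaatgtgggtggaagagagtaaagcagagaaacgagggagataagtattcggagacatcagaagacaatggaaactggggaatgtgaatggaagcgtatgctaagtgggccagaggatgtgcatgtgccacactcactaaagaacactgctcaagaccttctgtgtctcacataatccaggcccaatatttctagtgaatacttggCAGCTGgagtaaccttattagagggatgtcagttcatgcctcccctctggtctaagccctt
Prdm13 -2.8 kb, chr4:21688592-21688891: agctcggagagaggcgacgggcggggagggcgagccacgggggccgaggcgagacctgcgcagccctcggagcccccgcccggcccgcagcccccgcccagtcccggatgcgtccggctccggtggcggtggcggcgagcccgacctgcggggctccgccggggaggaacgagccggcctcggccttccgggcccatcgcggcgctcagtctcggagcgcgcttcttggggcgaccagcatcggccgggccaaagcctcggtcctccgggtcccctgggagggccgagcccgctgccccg
Prdm13 promoter, chr4:21685914-21686213: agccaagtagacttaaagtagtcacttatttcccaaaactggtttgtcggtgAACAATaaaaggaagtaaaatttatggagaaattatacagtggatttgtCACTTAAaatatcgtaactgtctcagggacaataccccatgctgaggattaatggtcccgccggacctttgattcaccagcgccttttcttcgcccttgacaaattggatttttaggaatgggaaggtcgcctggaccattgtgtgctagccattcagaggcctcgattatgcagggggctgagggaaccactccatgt

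The window of Sp8 -16.4 kb holds 1 SOX match and 1 E-box match. Sp8 -111.9 kb holds 1 FOXA match (TGTTTGC) and 1 E-box match, and the windows of Sp8 -5.2 kb and Prdm13 -2.8 kb hold no match to any of these strings. Over the 48 members, an E-box match was present in 11 (22.9%) and a SOX match in 9 (18.8%), beside 21.1% and 18.4% of all 111638 windows of the same length. FOXA letters were found in 1 (TGTTTAC, 2.08%) and 2 (TGTTTGC, 4.17%) members, beside 4.96% and 7.29% of all windows. TAATTA was found in 2 members (4.17%) beside 7.85%, TTAAGTG in 2 (4.17%) beside 3.47% and TCAAGTG in 1 (2.08%) beside 4.11%. The GLI letters were in no member and in 0.392% of all windows. The Prdm13 -2.8 kb window has a GC content of 79.3%, against 41.7% at Sp8 -16.4 kb.

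**Figure D1:**
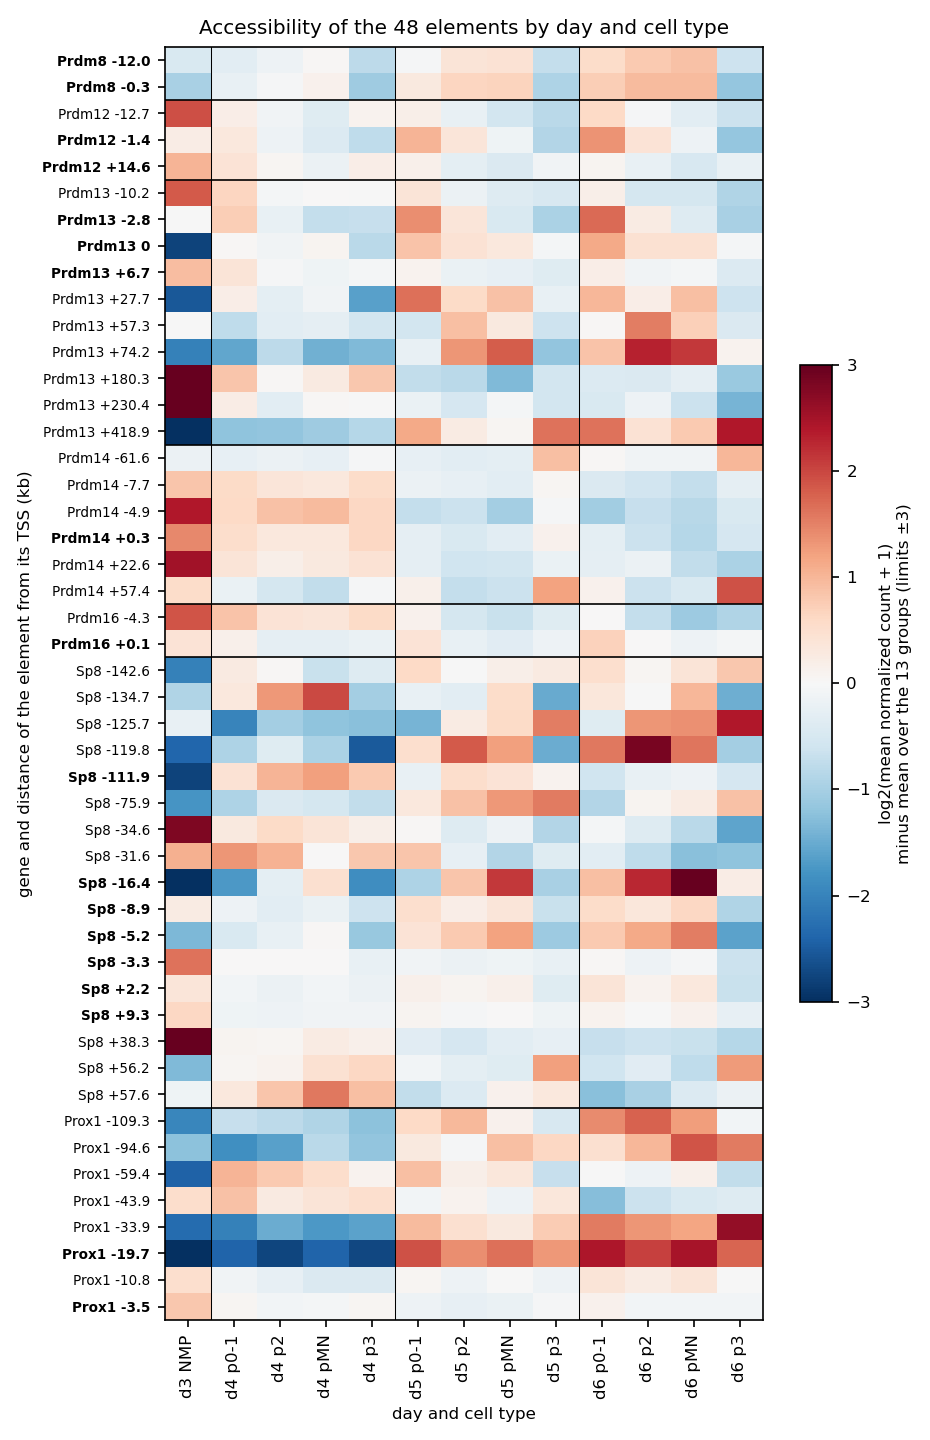
Each row is 1 of the 48 elements, named by gene and distance from its TSS in kb, and each column 1 of the 13 groups of day and cell type; colour gives log2(mean normalized count + 1) minus the mean of the row, limited to ±3, and bold names mark the 18 elements with a mean above 100 over all samples. Elements of Prdm8 and Sp8 near the gene are blue in p3 on day 6, and Prox1 -19.7 kb turns from blue to red between days 4 and 5.

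The first comparison asks how p3, the most ventral type sampled, differs from p0-1, p2 and pMN at these loci. An element was tested where its mean was above 100 normalized counts in the samples compared, and it was called with a Benjamini-Hochberg adjusted p under 0.01 over all elements tested and a log2 fold change beyond 2 in size (limma on the deposited values). On day 6, 17 of the 48 elements were tested and 6 were called in at least 1 of the 3 pairs, beside 16.9% of all elements tested. All 6 fell in p3, where 9.93% of all elements were called, and 0 rose, where 6.99% of all elements were called. On day 5, 3 of 18 were called, all lower in p3, beside 10.1% of all elements (7.20% lower, 2.90% higher). On day 4, 1 of 19 was called, lower in p3, beside 2.35% of all (1.52% lower, 0.827% higher). The called elements were Sp8 -16.4 kb on all 3 days, Sp8 -5.2 kb and Prdm13 -2.8 kb on days 5 and 6, and Prdm8 -0.3 kb, Prdm12 -1.4 kb and Sp8 -119.8 kb on day 6. Of the 3 pairs, Sp8 -119.8 kb passed the filter only in the pair with p2, where it was high. Sp8 -16.4 kb on days 4 and 5 and Sp8 -5.2 kb on days 5 and 6 had p3 means under 100. They passed the filter only through the other types.

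Over all 48 elements, 34 had a lower mean in p3 than over the other NP samples on day 6, 70.8%, beside 55.5% of all elements. Of these, 17 elements had a mean above 100 over the day 6 NP samples, and all 17 were lower in p3, beside 59.5% of the 32792 elements of all genes above that mean, with a median log2 ratio of -0.92 beside -0.05. The other 31 elements were mixed, 17 lower and 14 higher in p3. The filter on the mean favours elements open in the 15 samples of the other types over those open in the 4 p3 samples alone, so these counts describe the more open elements and are no test. Above the mean of 100, 15 of 18 were lower in p3 on day 5 (median -0.44), beside 45.9% of all elements (0.02), and 12 of 18 on day 4 (median -0.15), beside 43.9% (0.03).

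**Figure D2:**
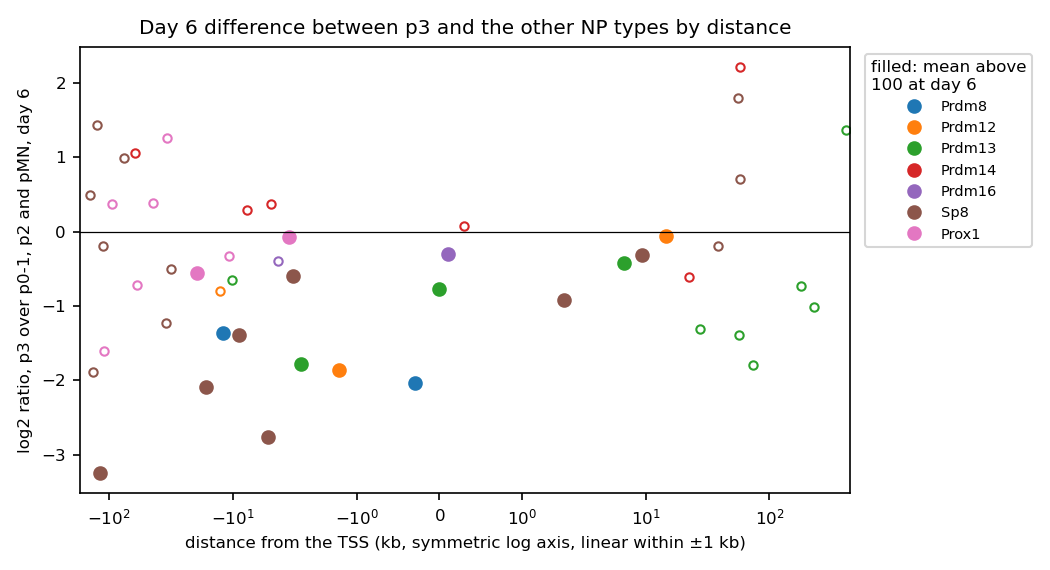
The log2 ratio of mean normalized counts (pseudocount 1) of p3 over p0-1, p2 and pMN together on day 6 is plotted against distance from the TSS in kb, 1 point per element and 1 colour per gene; filled points have a mean above 100 at day 6. The 17 filled points lie below 0, the lowest being Sp8 -119.8 kb at -3.25, and the open points lie on both sides.

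At Sp8, the locus with most members, the element at -16.4 kb was the one with the largest difference between p0-1 and pMN on day 6. On day 6 its normalized counts were 1061, 1184, 931.9 and 1253 in the 4 pMN samples and ran from 424.8 to 792.4 with a median of 559.2 in the 6 p2 samples. The 5 p0-1 samples gave 109.5, 128.9, 355, 237.6 and 297.2, and the 4 p3 samples 145.1, 158.7, 109.7 and 149.5. Thus pMN samples lay above all p2 samples, p2 above all p0-1 and p3 samples, and the ranges of p0-1 and p3 overlapped. Elements of the neuron genes differed in level between the types on day 6 as well: the summed counts of Elavl3 were 1725 in p0-1, 1978 in p3, 2527 in p2 and 2973 in pMN, and those of Tubb3 were 1320, 1455, 2218 and 1825. Their part in the differences between types was not tested. Compared with pMN, p3 was lower by a log2 fold change of -2.97 on day 6 (adjusted p = 3.19e-06), -3.10 on day 5 (3.83e-08) and -2.34 on day 4 (2.39e-06, limma). Without replicate 1 no member was called on day 4. Compared with p2 it was lower by -2.04 on day 6 (2.28e-06), while against p0-1 the difference of -0.68 did not pass (adjusted p = 0.23).

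The element at Sp8 -5.2 kb was lower in p3 than in each other type. Its day 6 counts were 84.09, 35.6, 55.44 and 38.84 in p3 and 560.3, 420.6, 492 and 461.2 in pMN, from 265 to 441.6 with a median of 371.6 in p2, and 260.2, 202.2, 368.5, 323.8 and 260.4 in p0-1. No p3 sample reached the lowest sample of another type. The log2 fold changes of p3 were -3.15 against pMN (adjusted p = 8.61e-06), -2.75 against p2 (1.42e-06) and -2.38 against p0-1 (2.56e-05). In p3 the element was at 74.71 ± 10.15 on day 4, 76.53 ± 8.386 on day 5 (SD, n = 5 each) and 53.49 ± 22.17 on day 6 (n = 4), close to the 64.01 ± 15.96 of NMP (n = 3), whereas in pMN it went from 168.5 ± 18.78 on day 4 (n = 6) to 483.5 ± 58.92 on day 6 (n = 4).

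Farther out, Sp8 -119.8 kb was most open in p2. On day 6 the p2 samples ran from 44.17 to 295.9 with a median of 190.1, and the p3 samples were at 16.49, 9.155, 16.17 and 8.739. No p3 sample overlapped p2, p0-1 (55.51 to 108.2) or pMN (48.83 to 116.5). The log2 fold change of p3 against p2 was -3.87 (limma adjusted p = 8.21e-05). The pairs of p3 with p0-1 and with pMN had means under the filter and were not tested. The element passed the filter on day 6 p3 comparisons only where p2, in which it was most open, was included. Against the 3 other types together it was -3.25 (adjusted p = 5.12e-05, or 0.04 by limma voom on the recovered reads). Nearer the gene, Sp8 -8.9 kb had 593.3 to 600.6 counts in p3 on day 6 and 1573 to 1908 in pMN. The difference on the log2 scale was -1.52 (limma adjusted p = 3.19e-06), inside the fold threshold. Over the gene itself, Sp8 +2.2 kb had 963, 1188, 1032 and 903 counts in p3 and 2065, 2023, 2056 and 1867 in pMN, a difference of -0.97 (adjusted p = 1.78e-05), also inside the threshold.

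**Figure D3:**
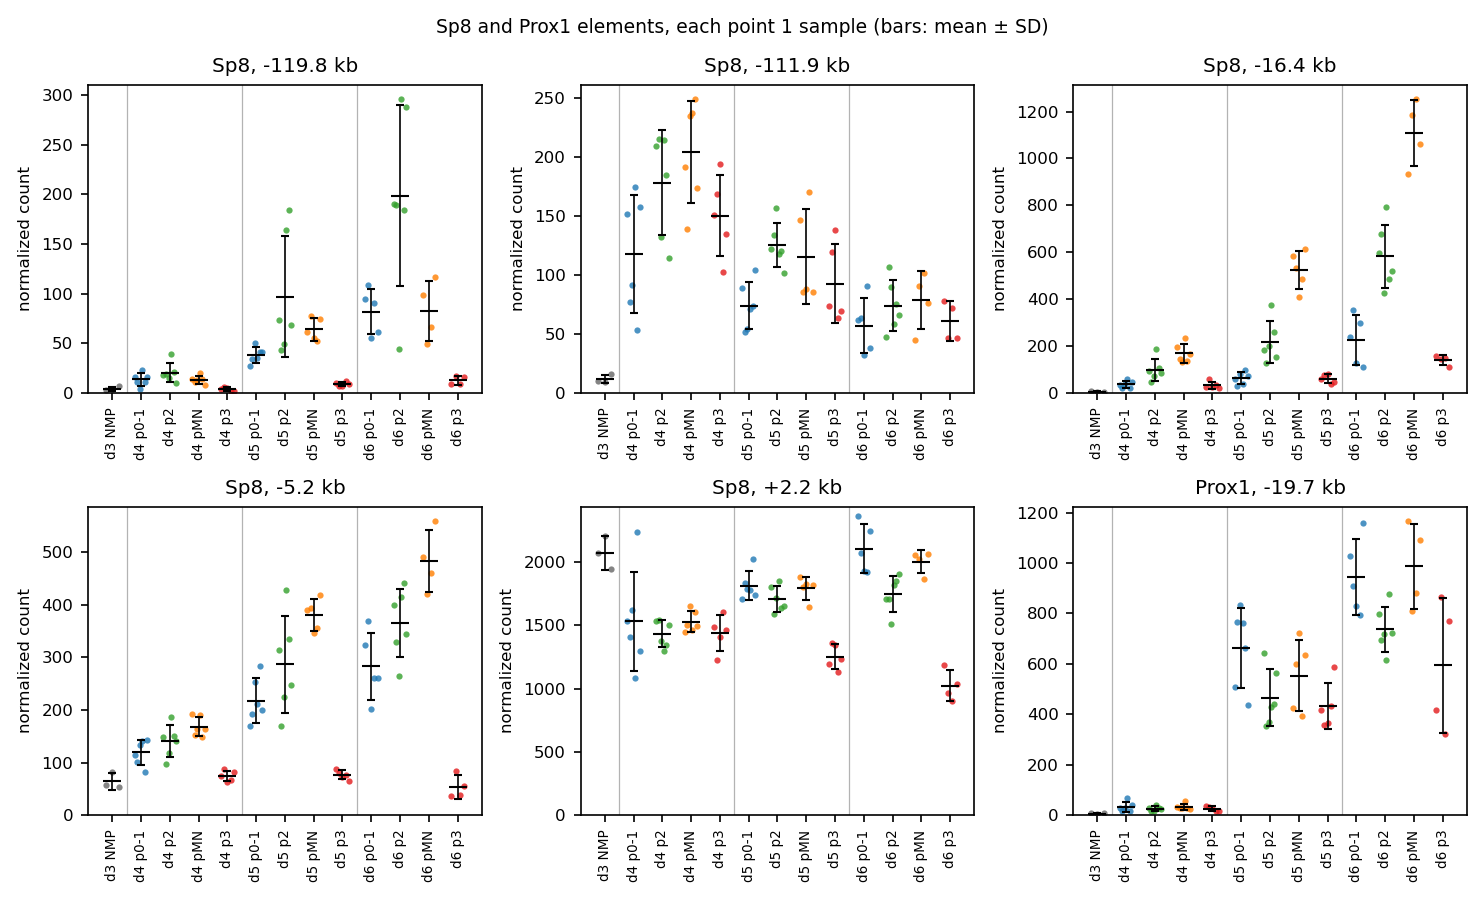
Normalized counts of 5 Sp8 elements and of Prox1 -19.7 kb, each point 1 sample, for the 13 groups of day (d3 to d6) and cell type; bars give mean ± SD and each panel starts at 0. Sp8 -16.4 kb climbs from 168.7 to 1107 in pMN between days 4 and 6, Sp8 -5.2 kb stays under 90 in every p3 sample, and Prox1 -19.7 kb is under 70 in every sample up to day 4.

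Prdm13 -2.8 kb, 1851 bp of intergenic sequence upstream of the gene, was highest in p0-1. On day 6 the p0-1 samples had 2385, 2237, 2226, 2573 and 2196 normalized counts, the p2 samples 623.5 to 998 (median 868.1), the pMN samples 725.2, 493.9, 654.3 and 324.6, and the p3 samples 344.6, 401.8, 358 and 354.4. The p0-1 samples lay apart from all others, and pMN and p3 overlapped. The log2 fold change of p3 against p0-1 was -2.34 on day 5 (adjusted p = 1.79e-10) and -2.67 on day 6 (5.47e-08). At the Prdm13 start itself p3 was lower than p0-1 by -1.19 (2380 against 1044, adjusted p = 3.80e-06), inside the fold threshold.

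Prdm12 -1.4 kb, a broad element of 6938 bp that covers the promoter, showed the same order of types. Its day 6 counts were 2262, 2564, 2895, 2595 and 3269 in p0-1, 1202 to 1669 (median 1380) in p2, 1035, 1107, 859.7 and 855.9 in pMN and 504.6, 524.9, 413.5 and 451.5 in p3. The 4 types did not overlap. The difference of p3 from p0-1 was -2.52 (adjusted p = 1.13e-07), from p2 -1.56 (3.78e-07) and from pMN -1.02 (6.83e-05), so that the call rests on p0-1, which shares no SAG concentration with p3. On day 4 the log2 fold change of p3 against p0-1 was -1.07 (1317 against 628.7, adjusted p = 0.00276).

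At Prdm8 the types p0-1, p2 and pMN stood together and p3 apart. The promoter element at -0.3 kb had 438.6, 373.3, 322.2 and 264.1 normalized counts in p3 on day 6 and 1724, 1515, 1505 and 1296 in pMN. The p2 samples ran from 1204 to 1647 with a median of 1561, and the p0-1 samples were at 1024, 848.6, 1578, 1592 and 1477. Every p3 sample was below every sample of the other types, which overlapped among themselves. The log2 fold change of p3 was -2.11 against pMN (adjusted p = 7.03e-06), -2.10 against p2 (2.14e-07) and -1.90 against p0-1 (3.32e-05, inside the fold threshold). Against the 3 types together it was -2.04 (adjusted p = 1.57e-09), or -2 without replicate 1. The element at Prdm8 -12.0 kb was at 1462 to 1700 in p3 and 4309 to 4950 in pMN, a difference of -1.51 (adjusted p = 2.75e-06).

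**Figure D4:**
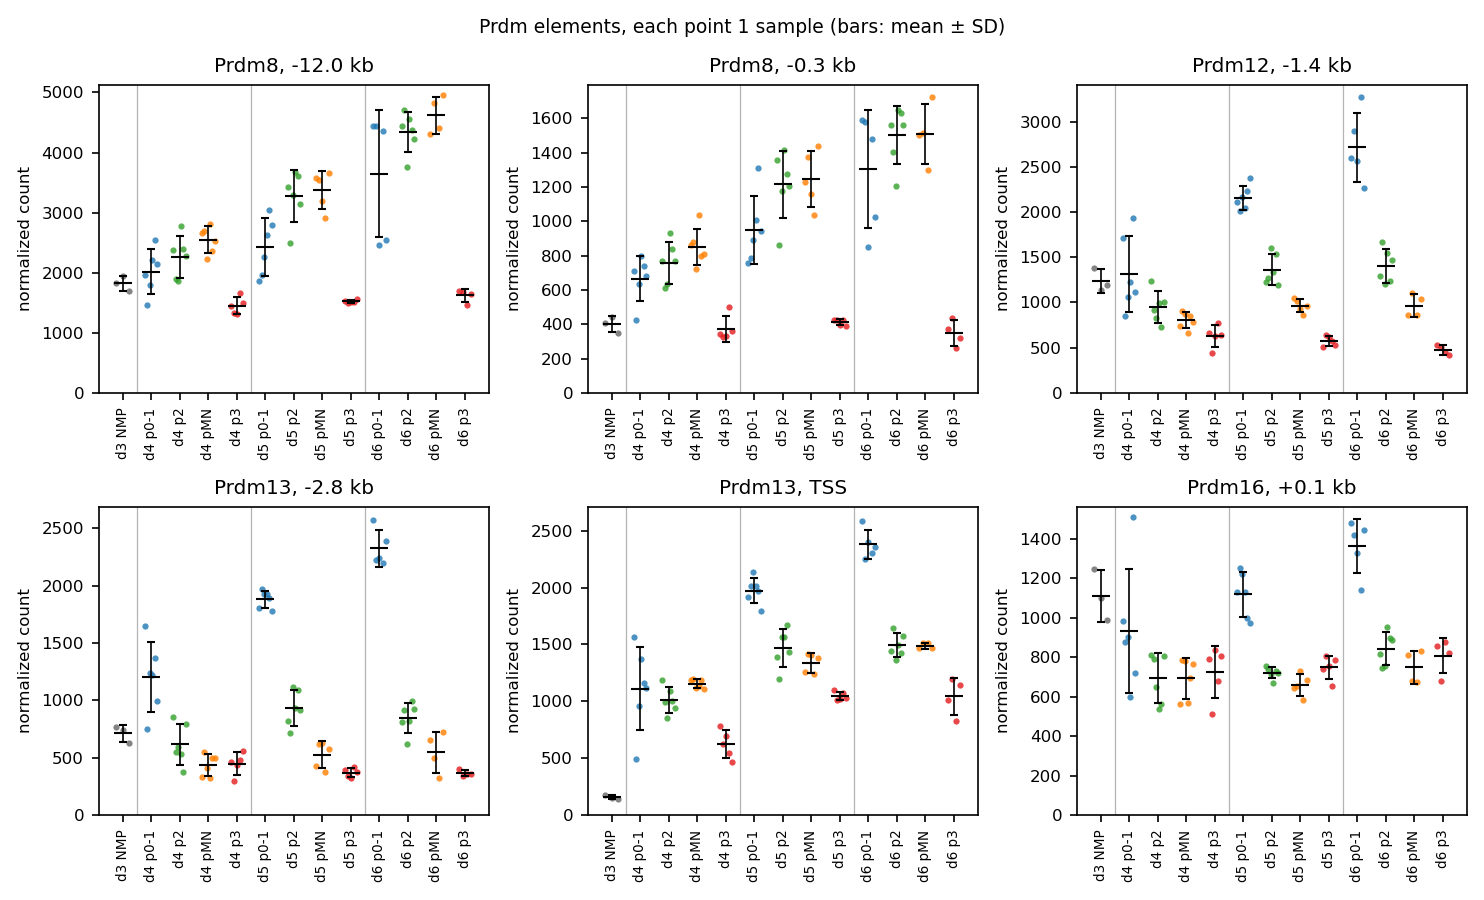
Normalized counts of 6 Prdm elements, each point 1 sample, for the 13 groups of day (d3 to d6) and cell type; bars give mean ± SD and each panel starts at 0. The p3 points of Prdm8 -0.3 kb stay between 264.1 and 500.6 from day 4 to day 6 while the other NP types reach over 800, and Prdm12 -1.4 kb and Prdm13 -2.8 kb are highest in p0-1.

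The start of Prdm16 lies in the element at +0.1 kb, which the annotation marks as the promoter-TSS of 5930403L14Rik. The accessibility of this element differed little between p3 and its neighbours. On day 6 it was at 679.4, 857.5, 820 and 878.8 in p3 and 831, 679.8, 812.6 and 673.8 in pMN, overlapping ranges with a log2 fold change of 0.11 (adjusted p = 0.48). In p0-1 it was higher, at 1141 to 1483, than in pMN by a log2 difference of 0.86 (pMN minus p0-1 -0.86, adjusted p = 0.000157), inside the fold threshold. The Prdm14 start at +0.3 kb was above the mean of 100 only up to day 5, when p3 was at 122 to 146.2 and the other NP types at 68.38 to 116, with log2 fold changes of p3 from 0.40 to 0.57 (adjusted p from 0.00361 to 0.00866). At Prox1 -3.5 kb p3 and pMN had 348.4 ± 29.4 and 349.9 ± 23.15 counts on day 6 (SD, n = 4 each, log2 fold change -0.01, adjusted p = 0.964).

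Several weakly open elements ran the other way. Prdm14 +57.4 kb had 65.96, 119, 71.6 and 163.1 normalized counts in p3 on day 6 and at most 39.65 in any sample of the other types. Prox1 -33.9 kb had 110.5, 117, 95.86 and 95.16 in p3 and at most 71.64 elsewhere. Prdm13 +418.9 kb had 108.8, 146.5, 124.7 and 116.5 in p3, a range that 1 p0-1 sample reached (143.7). Mean levels in p3 against the other types on day 6 were also 75.7 against 10.3 to 36.5 at Sp8 -125.7 kb, 48.4 against 11 to 15.1 at Sp8 +56.2 kb and 59.0 against 26.7 to 29.8 at Prdm14 -61.6 kb. None of these elements passed the filter on the mean on day 6. With no filter on the mean, 11 of 48 members were called in p3 on day 6 beside 21.6% of all elements, 3 higher (10.1% of all) and 8 lower (11.5% of all).

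The second comparison sets p0-1, p2 and pMN against each other. On day 4, 1 of 19 elements was called, beside 0.492% of all elements tested, on day 5 1 of 17 beside 1.93%, and on day 6 2 of 17 beside 3.31%. Sp8 -16.4 kb was the element called on each day, higher in pMN than in p0-1 by a log2 fold change of 2.21 on day 4 (35.76 ± 14.64 in p0-1 and 168.7 ± 40.31 in pMN, SD, n = 6 each, adjusted p = 1.57e-05), 3.05 on day 5 (62.62 against 525.2, 6.19e-07) and 2.29 on day 6 (225.6 against 1107, 3.07e-04). The day 6 difference missed the adjusted p without replicate 2 (2.22, 0.0156) and without replicate 3 (2.08, 0.0184), and the day 4 difference was not called without replicate 1. On days 4 and 5 the p0-1 mean of Sp8 -16.4 kb was under the filter, which the element passed in this pair only through pMN. The p2 samples lay between, and the differences of pMN from p2 were 0.77 on day 4 (adjusted p = 0.0783), 1.28 on day 5 (0.00138) and 0.92 on day 6 (0.00249). Prdm13 -2.8 kb was the other element called on day 6, lower in pMN than in p0-1 by a log2 fold change of -2.08 (adjusted p = 4.45e-05), or -1.79 without replicate 3 (0.00182), inside the fold threshold. The calls at both elements come from p0-1 and pMN, which share no SAG concentration, so type and concentration cannot be told apart. Sp8 and Prdm13 thus held elements with opposite orders across the same 3 types: pMN over p2 over p0-1 at Sp8 -16.4 kb, and p0-1 over p2 over pMN at Prdm13 -2.8 kb. Prdm12 -1.4 kb followed the second order with a pMN minus p0-1 difference of -1.49 on day 6 (adjusted p = 2.20e-05), and the Prdm13 start was at 2380 in p0-1, 1493 in p2 and 1488 in pMN, the last 2 groups differing by 0.00 (adjusted p = 0.995).

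The third comparison follows the passage from NMP on day 3 to NPs on day 4. Of 19 elements tested 3 were called, beside 28.7% of all elements tested. All 3 were higher in NPs, where 20.0% of all were called, and none was lower, where 8.66% of all were called. The mean of a pair covers 3 NMP and 5 or 6 NP samples. The filter therefore favours elements open in NPs over those open in NMP alone, and the direction of these counts is no test. Lower calls appeared under other settings, 2 of 5 with samples centred on their median, 1 of 3 without replicate 1, 3 of 7 with a mean above 50 and 5 of 10 with a log2 fold change beyond 1. Over all elements 4168 of 10450, 3242 of 9995, 6306 of 19074 and 10229 of 18848 called elements were lower under the same settings. Over all elements tested the median log2 change ran from -0.51 (p2) to -0.39 (p0-1), and over the members tested the medians were -0.40 in p0-1, -0.55 in p2, -0.62 in pMN and -0.73 in p3. The Prdm13 start opened: it was at 174.5, 151.1 and 145.4 normalized counts in NMP and at 495.3 to 1566 (median 1141) in p0-1, 853.8 to 1184 (998.8) in p2 and 1105 to 1200 (1158) in pMN on day 4. The log2 fold changes were 2.82 (adjusted p = 1.31e-06), 2.68 (2.95e-11) and 2.87 (6.30e-13). In p3 the samples had 545, 466.4, 780.9, 624.6 and 691.2 counts, above every NMP sample, and the change of 1.98 (8.55e-09) was just under the fold threshold.

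The other called elements were distal to Sp8, at -111.9 and -16.4 kb. Sp8 -111.9 kb was at 9.697, 9.442 and 16.15 counts in NMP and at 114.8 to 215.2 in p2 and 138.9 to 249.5 in pMN on day 4, with log2 fold changes of 3.81 (adjusted p = 6.18e-09) and 4.01 (4.30e-10). Its p0-1 (53.04 to 174.7) and p3 (103 to 194.2) samples were also above all NMP samples but these pairs had means under the filter. Its day 6 means were 57.1 to 78.5. Sp8 -16.4 kb was at 6.061, 5.395 and 4.308 in NMP and 168.7 in pMN, a log2 fold change of 4.76 (1.43e-10). At both elements every NMP sample was far under the filter on the mean. Sp8 -16.4 kb passed it in this pair only through pMN, and Sp8 -111.9 kb only through p2 and pMN.

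Other members were more open in NMP than later. Sp8 -3.3 kb had 646.1 counts in NMP and 176.9 to 208.3 in the day 4 types, log2 fold changes from -1.86 to -1.63 (adjusted p at most 9.94e-06) inside the fold threshold. Sp8 +38.3 kb, in an intron of Abcb5, was at 227.3 in NMP and 16.8 to 19.2 on day 4, and Prdm13 +180.3 kb was at 79.5 and 5.42 to 10.3, both under the filter in the pairs. The Prdm14 start had a mean of 334.1 in NMP (285.4 to 399.2), means of 151.5 to 189.9 on day 4 and means of 67.31 to 98.98 on day 6. The NMP to day 4 changes at the Prdm14 start were from -1.14 to -0.81 (adjusted p at most 0.00081). Prdm16 -4.3 kb had 299.4 counts in NMP and 103.3 to 145.5 on day 4.

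From day 4 to day 5, 1 of 20 members tested was called within a type, beside 7.11% of all elements tested. It was Prox1 -19.7 kb, 1097 bp in an intron of LOC102632463 upstream of Prox1, and it was called in all 4 types. In each type every day 4 sample was under the filter on the mean, and the element passed only through the day 5 samples. In NMP it had 7.273, 2.698 and 7.539 normalized counts. On day 4 the samples of the 4 types ran from 14.34 to 67.62, and on day 5 from 354.2 to 835.4, with no overlap. The p3 samples, for example, had 18.17, 15.17, 34.18, 31.38 and 29.99 counts on day 4 and 418, 432.9, 358.8, 588 and 365.6 on day 5. The log2 fold changes were 4.31 in p0-1 (adjusted p = 4.14e-08), 4.16 in p2 (1.17e-09), 4.04 in pMN (3.30e-10) and 4.02 in p3 (2.28e-08). By day 6 the means were 943.5 ± 150.1 in p0-1 (n = 5), 737.3 ± 89.08 in p2 (n = 6), 986.6 ± 168.3 in pMN (n = 4) and 593.8 ± 266.3 in p3 (SD, n = 4). The p3 samples split by replicate number, at 867.3 and 771.5 against 416 and 320.4, and the p3 minus pMN difference of -0.73 had an adjusted p of 0.0459.

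From day 5 to day 6, 0 of 18 members were called by limma, beside 0.624% of all elements tested. An unadjusted p under 0.05 was found for 10 of 16 members in p0-1, 6 of 17 in p2, 8 of 16 in pMN and 5 of 15 in p3. Over all elements it was found for 13905 of 31401, 13369 of 32424, 13493 of 32812 and 11734 of 32208. Sp8 -16.4 kb nevertheless was higher on day 6, by 1.83 in p0-1 (adjusted p = 0.00427), 1.43 in p2 (0.000622) and 1.07 in pMN (0.000176), all inside the fold threshold. The p3 minus pMN difference was compared between days 4 and 6 in 1 model, and 0 of 18 members passed both thresholds in limma, beside 2.35% of all elements. The unadjusted p was under 0.05 for 10 of the 18 members and for 9311 of all 31716 elements tested. With an adjusted p under 0.01 and a log2 change beyond 1, 2 of 18 members passed, beside 10.6% of all elements. The adjusted p alone was under 0.01 for 5 members, and the share of all elements at that criterion was not counted. Sp8 -5.2 kb changed most, its difference going from -1.16 to -3.15 (change -1.99, just inside the fold threshold, adjusted p = 1.26e-05). The others were Sp8 -8.9 kb, from -0.41 to -1.52 (-1.11, 6.67e-05), Sp8 +2.2 kb, from -0.08 to -0.97 (-0.89, 1.69e-05), Prdm8 -12.0 kb, from -0.81 to -1.51 (-0.70, 0.000122), and Prdm8 -0.3 kb, from -1.19 to -2.11 (-0.92, 0.00177). The Prdm8 start went from 850.4 to 1510 counts in pMN over these days and from 372 to 349.6 in p3.

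The last comparison sets the 2 SAG concentrations of a type and day against each other, called with an adjusted p under 0.01 and a fold beyond 2. No member was called by limma (0 of 205 tests), beside 0.00203% of all elements. The unadjusted p was under 0.05 in 19 of these tests. Over all elements, from 153 of 31179 (p3, day 5) to 5715 of 31156 (p0-1, day 6) had such a p in a pair. Samples with the same replicate number deviated together on day 6. With the number as a block 1 member was called, beside 5.85% of all elements: Sp8 -16.4 kb in p0-1 on day 6, at 109.5 and 128.9 counts with 0 nM and 355, 237.6 and 297.2 with 10 nM (log2 fold change 1.31, adjusted p = 0.0594 without and 1.20e-12 with the block). The blocked fit of these 5 samples has 1 residual degree of freedom, so that its p rests on the spread limma borrows from all elements, and it called 2056 of 31156 elements. In p2 the same element was at 792.4, 521.8 and 676.1 with 10 nM and 596.6, 485.4 and 424.8 with 100 nM on day 6. Prdm8 -12.0 kb in p0-1 on day 6 had 2541 and 2457 counts with 0 nM and 4446, 4447 and 4362 with 10 nM, which is 0.82 on the log2 scale and under a fold of 2 (adjusted p = 0.0527). The 2 concentrations did not overlap at either element in p0-1, with 2 and 3 samples, and neither difference was called without the block. How many of all elements are free of overlap in groups this small was not counted.

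**Figure D5:**
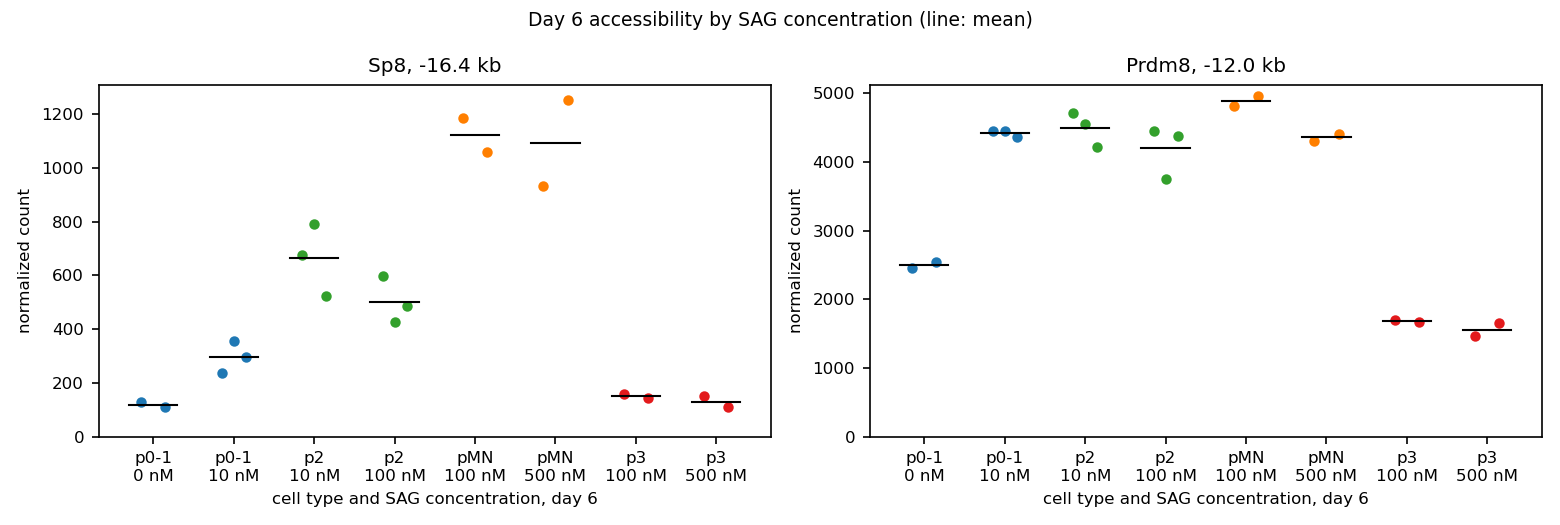
Day 6 normalized counts of Sp8 -16.4 kb (left) and Prdm8 -12.0 kb (right) by cell type and SAG concentration in nM, each point 1 sample and each line the mean of 2 or 3 samples; both axes start at 0. The p0-1 samples with 0 nM lie below those with 10 nM in both panels, a difference called at neither element without the replicate block. In both panels pMN and p3 differ at both concentrations.

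Across the 25 condition means, the 7 elements at or nearest the gene starts followed different courses. Pearson's r was 0.783 between the elements of Sp8 and Prdm12, 0.732 between Sp8 and Prdm8, and -0.772 between Prdm13 and Prdm14, which share the samples and their depth. Among the 31744 elements with a mean above 100, the genes with the element most like each start were Neurog2, Fgfbp3 and Pigz for Prdm8 (r from 0.973 to 0.977), Papln, Trim2 and Slc45a1 for Prdm12 (0.942 to 0.964), and A930002C04Rik, Pcnx4 and Apba2 for Prdm13 (0.973 to 0.978). They were 4933404K08Rik, AI646519 and 4930412O13Rik for Prdm14 (0.973 to 0.975), Bnc2, Pax2 and Sox6os for Prdm16 (0.931 to 0.947), Xpo1, Dbx2 and Gm29683 for Sp8 (0.920 to 0.937), and Mogat2, Tmem238 and Hsd11b2 for Prox1 (0.944 to 0.945). Over all 48 members, the condition means spanned more than 2 units of the deposited log2-scale values in 31 (64.6%), beside 61.7% of all elements, and their median SD was 0.568 beside 0.56.

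Other Prdm, Sp and Prox genes gave a further 137 elements from 18 genes (Prdm1, Prdm2, Prdm4, Prdm6, Prdm9, Prdm10, Prdm11, Prdm15, Mecom, Sp1 to Sp7, Sp9 and Prox2). In p3 against the other types 0 of 40 were called on day 4, 2 of 39 on day 5, both lower in p3, and 6 of 42 on day 6, 4 lower and 2 higher, beside 2.35%, 10.1% and 16.9% of all elements. Among p0-1, p2 and pMN 0 of 40, 2 of 40 and 1 of 41 were called on days 4, 5 and 6, beside 0.492%, 1.93% and 3.31%. From NMP to day 4, 14 of 48 were called, 8 higher and 6 lower in NPs, beside 28.7% of all elements (20.0% higher, 8.66% lower). From day 4 to day 5 0 of 44 and from day 5 to day 6 0 of 48 were called, 0 of 58 between SAG concentrations and 0 of 39 for the change of the p3 minus pMN difference.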

How the data were processed

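ATAC-seq reads of 67 samples of sorted cells were aligned to mm10 by the authors, peaks were called with MACS2 and merged to consensus elements, and reads per element were counted. The deposited values are the variance-stabilising transformation the authors made of those counts with DESeq2, on a log2 scale. The transformation was inverted exactly, with 2.702 as the value of 0 reads, and 100% of recovered values under 1000 reads were whole within 1e-06. Normalized counts are these reads divided by the size factor of the sample. Groups were compared with limma 3.58.1 (trend, two-sided) in R 4.3.3 on the deposited values of all elements, with a mean above 100 in the compared samples, and p-values were adjusted over all elements tested. Fold changes are log2 ratios of group means of normalized counts with a pseudocount of 1, which understates changes of weakly open elements. The mean and SD describe the samples of a group. The members, lists and tests were chosen with earlier results of these data known. For each gene the elements named by rule are the one at or nearest its start and, among those with a mean above 100, the ones with the largest increase and decrease in p3 against the other types on day 6, the largest difference between p0-1 and pMN on day 6 and the largest change from NMP to day 4; members called between SAG concentrations and the 3 genes most alike to each start (Pearson's r) were also named. Other elements were named after their values were seen. Replicate numbers were taken from the sample titles, and 15 descriptions give another number. The deviations of samples from their group means correlated within a number with a median of 0.569 on day 5 and 0.565 on day 6 (every pair above 0.1) and 0.618 on day 4 (89.6% of pairs). The study describes its replicates as independent differentiations. Whether samples of 1 number at different SAG concentrations share a differentiation is not given in the sources used here, and the p-values treat them as separate samples. The study sorted several cell types from each SAG condition. The main fits do not pair the types, and the replicate block pairs them by number only. The fits were tested on simulated data. Alternatives were other filters, pseudocounts, scalings and folds, limma voom on recovered reads, the replicate block and leaving out each replicate. Sequences came from GRCm38.p6, in which all 111638 elements lay within the chromosomes. Some items of the lists examined are not reported here.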

Additional observations from a re-analysis of the deposited data

Results flagged for a closer look

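Of the 180 groups of 4 to 6 samples tested over the named elements, 5 held a sample set apart from the others by more than Dixon's 95% critical value, which chance gives in about 1 of 20 groups. At Prdm8 -0.3 kb 1 p0-1 sample of day 4 (10 nM SAG, replicate 2) had 422 normalized counts and the others 631 to 799, and 1 p3 sample of day 4 (100 nM, replicate 1) had 501 and the others 325 to 360. At Prdm14 +0.3 kb 1 p2 sample of day 4 (10 nM, replicate 1) had 98.6 and the others 148 to 171. At Sp8 -119.8 kb 1 p2 sample of day 6 (100 nM, replicate 3) had 44.2 and the others 184 to 296. At Prox1 -19.7 kb 1 pMN sample of day 4 (500 nM, replicate 1) had 55.8 and the others 24.6 to 31.

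The p3 minus pMN difference changed between day 4 and day 6, by the adjusted p of the change itself, at Sp8 -5.2 kb (-1.99), Sp8 -8.9 kb (-1.11), Sp8 +2.2 kb (-0.89), Prdm8 -12.0 kb (-0.70) and Prdm8 -0.3 kb (-0.92 on the log2 scale). None of these passed the fold threshold, and the share of all elements with such an adjusted p was not counted. At each of the 5 elements the pMN mean was higher on day 6 than on day 4.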

How the results depend on the processing

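Counts of called members moved by over 1.5 times under these alternatives. With no filter on the mean they were 3, 7 and 11 for p3 on days 4, 5 and 6, 2 among the other types on day 5, 16 from NMP to day 4, 8 from day 4 to day 5 and 1 for the change of the p3 minus pMN difference. Without the filter 4.37%, 15.6% and 21.6% of all elements were called for p3, beside 6.25%, 14.6% and 22.9% of the members, and from NMP 40.1% beside 33.3%. Among the other types on day 5 the shares were 4.19% of all elements beside 4.17% of the members. From day 4 to day 5 they were 11.6% beside 16.7%, and for the change 5.22% beside 2.08%. With a mean above 50 the members called were 2 for p3 on day 4, 7 from NMP and 2 from day 4 to day 5. These were 9.52%, 29.2% and 8.33% of the members tested, beside 3.39%, 34.8% and 8.97% of all elements. With a log2 fold change beyond 1 the members called were 5, 7 and 10 for p3, 2 and 3 among the other types on days 4 and 5, 10 from NMP, 3 and 1 for the later steps and 2 for the change. In the same order these were 26.3%, 38.9% and 58.8%, 10.5% and 17.6%, 52.6%, 15% and 5.56%, and 11.1% of the members tested. Of all elements 11.4%, 27% and 34.9%, 3.73% and 11.6%, 54.5%, 25.3% and 8.35%, and 10.6% were called. Differences of the deposited values gave 0 among the other types on day 4, centring gave 5 from NMP and 1 for the change, and the replicate block gave 1 between SAG concentrations, from a fit with 1 residual degree of freedom, and moved no other count of called members by over 1.5 times. Of all elements 0.363% were called with the first alternative, 30.2% and 2.38% with centring and 5.85% with the block. Leaving out a replicate gave 0 to 1 for p3 on day 4 and 5 to 6 on day 6, 0 to 1, 1 to 2 and 0 to 2 among the other types, 0 to 2 for SAG and 0 to 1 for the change. Of all elements, 2.11% to 2.92% and 15.5% to 20.3% were then called for p3 on days 4 and 6. Among the other types the shares were 0.387% to 0.586%, 1.92% to 2.31% and 2.04% to 3.42%. For SAG they were 0% to 5.4% and for the change 2.25% to 2.62%. The p3 minus pMN difference turned to -0.13 at Prdm16 +0.1 kb without replicate 3 (0.36 without replicate 2) and to 0.12 at Prox1 -3.5 kb without replicate 2. Over single elements and lists, 193 alternatives kept the direction and side of the thresholds, 5 lost the call, 2 turned and 6 moved. With Spearman's rho the 3 genes most alike to each start shared 0 to 2 with those by Pearson's r. SAG pairs of pMN and p3 on day 6 could not be fitted without replicate 2 or 3. Of 48 members, 30 have a mean at or below 100 over all samples, and most of their differences were not tested.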

Other observations

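Elements inside the Prox1 and Prdm16 genes carry other Gene Names in the annotation and so are not among the 48 elements, 9 in Prox1 and 26 in Prdm16; the ones given here were chosen after their values were seen. An element in intron 3 of Prox1 (chr1:190148441-190149843) had 7.903 normalized counts in NMP and 517.6 over the day 4 NPs (log2 fold change 5.86, limma adjusted p = 1.64e-13), and on day 6 163.3 in p3 and 1271 over the other NP types (-2.95, adjusted p = 1.03e-10). An element in intron 4 (chr1:190126898-190130080) went the other way, with 931.1 in p3 and 350.4 in the others on day 6 (1.41, adjusted p = 3.81e-06), inside the fold threshold. A second element of intron 4 (chr1:190137990-190141210) had 317.7 in p3 and 1353 in pMN (-2.09, adjusted p = 1.31e-05).

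In Prdm16, an element of intron 3 (chr4:154471435-154474184) had 58.68 counts in NMP and 784 over the day 4 NPs (3.72, adjusted p = 2.81e-13), and one of intron 2 (chr4:154496956-154500344) had 195.8 and 1145 (2.54, adjusted p = 2.62e-18). Another of intron 3 (chr4:154399961-154403298) had 352.9 in p3 and 78.88 in pMN on day 6 (2.15, adjusted p = 0.00207). The Prdm16 start, at +0.1 kb, differed by 0.11 between p3 and pMN on day 6 (adjusted p = 0.48).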
